A study of Saccharomyces cerevisiae with 4 samples.

Results

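The genes described here are 34 genes of budding yeast (Saccharomyces cerevisiae) that act in meiotic recombination or in spore formation, of 6459 genes in the deposited count table. They were chosen by name, with earlier results of these data known. Of these, 21 are early genes of recombination and chromosome pairing, and 13 are middle or mid-late genes of sporulation. RNA-seq was carried out in the ESS1-AID strain of the BY4741 background, whose genotype is given as HIS3::ADH1-OsTIR19Myc for the plant auxin receptor OsTIR1, driven by the ADH1 promoter, and ESS1AID 71-114-6Flag::hphB for a degron on Ess1, a prolyl isomerase. Auxin brings the degron to OsTIR1, which marks the fused protein for destruction. Cultures in YPD, a rich glucose medium, received the auxin IAA (indole-3-acetic acid) at 2 mM in mid-log phase, and control cultures received DMSO, for 3 h in both cases. Each treatment had 2 libraries, called biological replicates in the series' design text. Both groups carried the degron and OsTIR1, so loss of Ess1 and other effects of IAA cannot be told apart, and the files hold no measure of Ess1 protein.

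Meiotic genes are kept silent in growing haploid cells and are switched on in waves when diploid cells starve. Early genes carry URS1, a promoter element bound by Ume6, which recruits the Sin3-Rpd3 histone deacetylase during growth and hands over to the activator Ime1 at meiotic entry. Middle genes carry the middle sporulation element (MSE), bound by the repressor Sum1 with Rfm1 and Hst1 during growth and by the activator Ndt80 in meiosis. BY4741 is a haploid of mating type a, so the values below are the low levels of genes outside their program. In RNA from whole cultures, more RNA per cell and more cells with a transcript cannot be told apart.

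The promoters show why the early and the later genes are compared as classes, and stretches of 30 bases around matches are printed for genes that the results turn on. The letters GCCGCC, the core of URS1, were searched on both strands of the 300 bases before the start codon in build R64. They were found in 14 of 21 early genes and in 1 of 13 middle and mid-late genes, SMK1, against 5.21% of 5994 protein-coding genes. The sequences below are read 5′ to 3′ on the strand of the gene, with the core, or its reverse complement GGCGGC, in capitals.
MER1, chrXIV:250809-250838, plus strand: gatcgcattttaGCCGCCgacagtgttaat
NDJ1, chrXV:117525-117554, minus strand: gcgtagaagttgGGCGGCtattttgacaga
HOP1, chrIX:226419-226448, plus strand: gtttttaacctgGGCGGCtaaattgtactt
REC104, chrVIII:412804-412833, plus strand: cgcacaatatttGGCGGCtattttccgcta
SPO13, chrVIII:131940-131969, plus strand: tattgagaaataGCCGCCgacaaaaaggaa
ZIP1, chrIV:1032404-1032433, plus strand: taaaataccctcGGCGGCtaaatttttaga

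The first 5 of these genes were higher in IAA and ZIP1 was not called. Of all 13 tested early genes with the core, 8 were higher and 5 were not called, against 28.7% higher over all tested genes. The letters GNCACAAA, 1 form of the MSE, were found on either strand in 7 of 13 middle and mid-late genes and in 0 of 21 early genes, against 4.12% of the 5994 promoters. The search allowed no other form of either element, so a gene without a match may still carry one. MSE matches are in capitals in the following stretches, as GNCACAAA or as its reverse complement.
SMK1, chrXVI:666190-666219, plus strand: ggcgccactaaTTTGTGACacttgaacagt
SPO19, chrXVI:304212-304241, plus strand: aagaaaaaaatGCCACAAAaagtagttgat
SPS2, chrIV:1485315-1485344, minus strand: aaaaaaaatatTTTGTGGCattacttagac
SPO21, chrXV:145205-145234, plus strand: atttttttaatGTCACAAAaagaaaaatta
CRR1, chrXII:568053-568082, minus strand: cttttaaaggcGTCACAAAaattatgtaaa

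SMK1, SPO19 and SPS2 were higher in IAA, SPO21 was not called and CRR1 was lower, a call that DESeq2 did not make. Thus not every gene with the printed element was called higher. The matched letters do not show that a factor was bound.

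**Figure D1:**
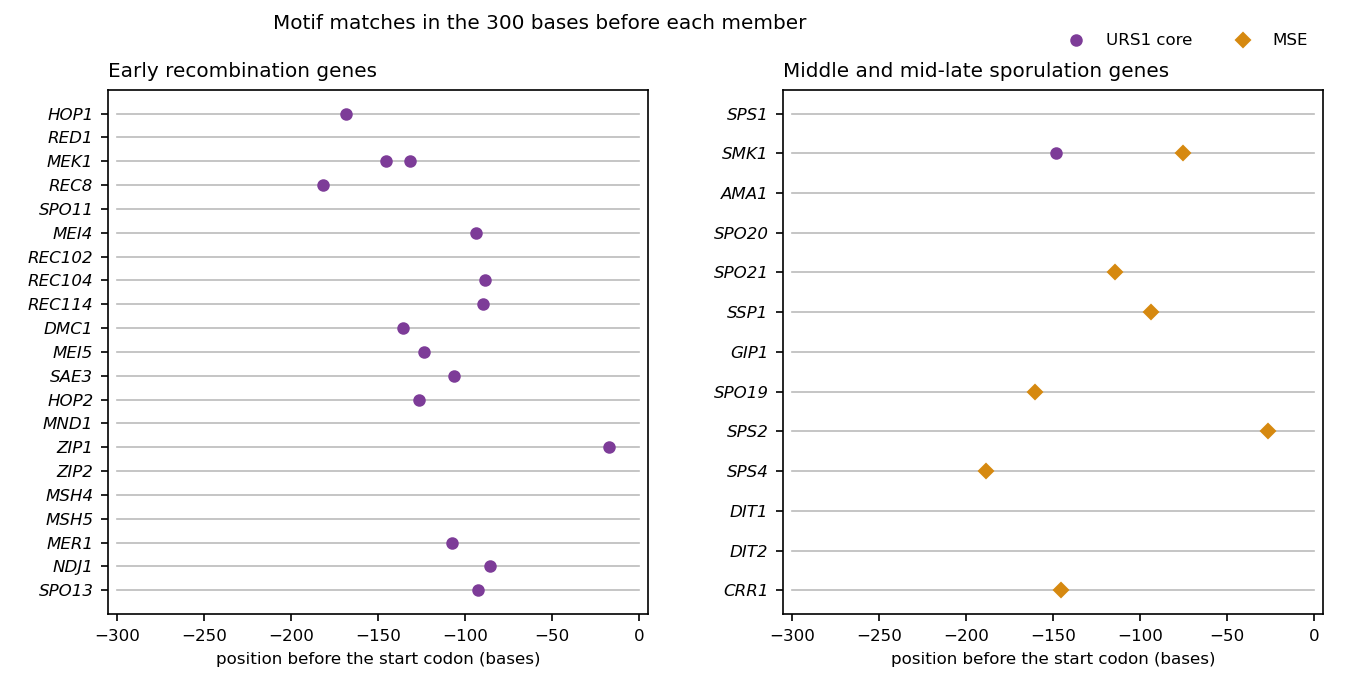
Matches to the URS1 core (circles) and to the MSE (diamonds) in the 300 bases before the start codon of the 21 early genes (left) and the 13 middle and mid-late genes (right), with position in bases on the x axis. URS1 matches lie in 14 early genes and 1 later gene, and MSE matches in 7 later genes and 0 early genes.

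The libraries held 33589128 and 33625232 estimated counts in IAA, and 26046702 and 27609311 in DMSO. ESS1 mRNA had 6.70 and 7.92 CPM in IAA against 5.15 and 5.31 CPM in DMSO (CPM is the count scaled to a common library total after TMM adjustment), and since the degron acts on the protein, this does not report depletion. The mating type a gene STE2 stood between 330.4 and 379.3 FPKM in all 4 libraries, while the alpha gene STE3 stood between 3.79 and 5.31 FPKM (FPKM is the authors' value per length and library total). URA3, LEU2 and MET17, which BY4741 lacks, were at 0 in every library. MFA1 and MFA2, very short pheromone genes, were listed at 0 FPKM, and their counts were also low. MFA1 had 7 and 1 counts in IAA and 4 and 0 in DMSO. MFA2 had 26 and 17 counts in IAA and 5 and 3 in DMSO. HIS3, the marker of the OsTIR1 insertion, was 2.18 times as high in replicate 1 as in replicate 2 in IAA and 2.13 times as high in DMSO. Its part in the results was not tested.

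All 34 genes were measured at low levels. Each had a mean FPKM over the 4 libraries below 51.9, the median of all genes. The median gene of the 34 had 5.60 and 6.16 FPKM in the IAA libraries, against 4.33 and 4.07 FPKM in the DMSO libraries. Together the 34 genes took 0.0330% and 0.0333% of all counts in IAA and 0.0280% and 0.0268% in DMSO, with 95% Wilson intervals of 0.0324% to 0.0336%, 0.0326% to 0.0339%, 0.0273% to 0.0286% and 0.0262% to 0.0275%. These intervals cover counting error only.

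The highest per length was NDJ1, with 37.2 and 36.9 FPKM in IAA against 21.6 and 22.2 FPKM in DMSO. SMK1 followed with 24.95 and 25.93 FPKM in IAA against 20.0 and 18.4 FPKM in DMSO. DMC1 had 20.2 and 24.4 FPKM in IAA against 21.2 and 17.6 FPKM in DMSO. For NDJ1 and SMK1 the groups did not overlap in FPKM, whereas for DMC1 they did. CRR1 had 18.3 and 19.2 FPKM in IAA against 22.8 and 22.7 FPKM in DMSO. MER1 had 19.6 and 17.7 FPKM in IAA against 9.72 and 7.69 FPKM in DMSO. Thus CRR1 was above MER1 in both DMSO libraries, and both genes lay between 17 and 20 FPKM in IAA. At the other end SAE3, which helps load the Dmc1 recombinase, was at 0 in all 4 libraries, which allows up to 0.0893 and 0.0892 CPM in the IAA libraries and up to 0.115 and 0.109 CPM in the DMSO libraries at 3 counts each. Its partner MEI5 had 20 and 15 counts in IAA and 6 and 11 in DMSO.

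**Figure D2:**
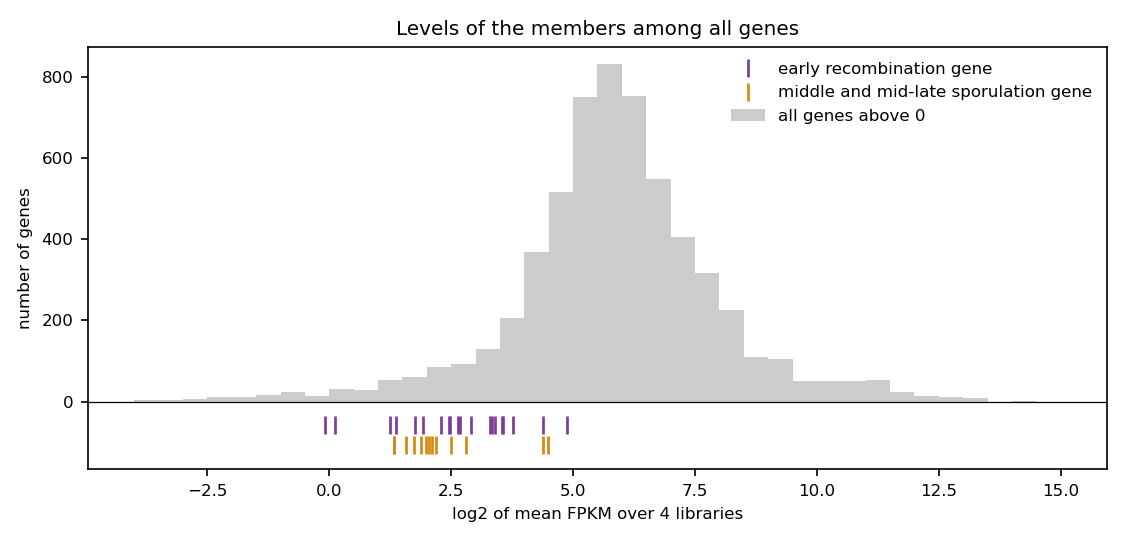
Histogram of the log2 of the authors' FPKM, averaged over 4 libraries, for all genes above 0 (grey), with a tick for each early gene and each middle or mid-late gene except SAE3, which was at 0. All ticks lie left of the centre of the histogram, with NDJ1 the furthest right at a mean of 29.5 FPKM.

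Differences were tested with edgeR's quasi-likelihood test on all 5799 genes that passed the filter on low counts, with p-values adjusted by Benjamini-Hochberg over all of them and a threshold of 0.05. Of the 34 genes, 33 were tested, the exception being SAE3. In IAA 20 of the 33 were higher and 1 was lower, against 28.7% higher, 29.6% lower and 58.3% either way over all tested genes. Of 20 tested early genes 12 were higher and 0 lower, and of 13 middle and mid-late genes 8 were higher and 1 lower. An unadjusted p under 0.05 with a lower level was found for 0 early genes, and DESeq2 and limma-voom also called 0 of them lower. The share higher was thus 60.0% in early genes and 61.5% in later genes. The median log2 fold change was 0.55 in early genes, 0.35 in later genes and -0.00 over all tested genes. No test of the difference between the classes was made.

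In TMM-scaled CPM both IAA libraries were above both DMSO libraries in 18 early and 9 later genes, against 40.2% of all tested genes. Both IAA libraries were below both DMSO libraries in 1 of the 33 genes, CRR1, against 41.3% of all tested genes. In FPKM the groups of DMC1 and MEI4 overlapped, and those of MSH5 met at 9.87. By FPKM, SPO21 was also below DMSO in both IAA libraries. Genes of low level were higher more often than genes in general: of 1536 tested genes within the range of mean CPM that the 33 spanned, 36.6% were higher and 18.0% lower, with a median log2 fold change of 0.13. Of these 1536 genes, 775 had both IAA libraries above both DMSO libraries in CPM, and 440 had both below. Scaled by library size alone, which moved the median of all genes to -0.11, 11 early and 7 later genes were higher and 1 later gene was lower, while over all genes 1131 were higher and 2501 lower, against 1666 and 1714 with TMM scaling. Measured from the median of all genes, the early median was 0.55 and the later median 0.35 with either scaling. Where the filter kept only genes averaging 10 CPM or more, which left fewer members, they were 0.35 and 0.37. The early median was thus not the higher one under that filter.

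**Figure D3:**
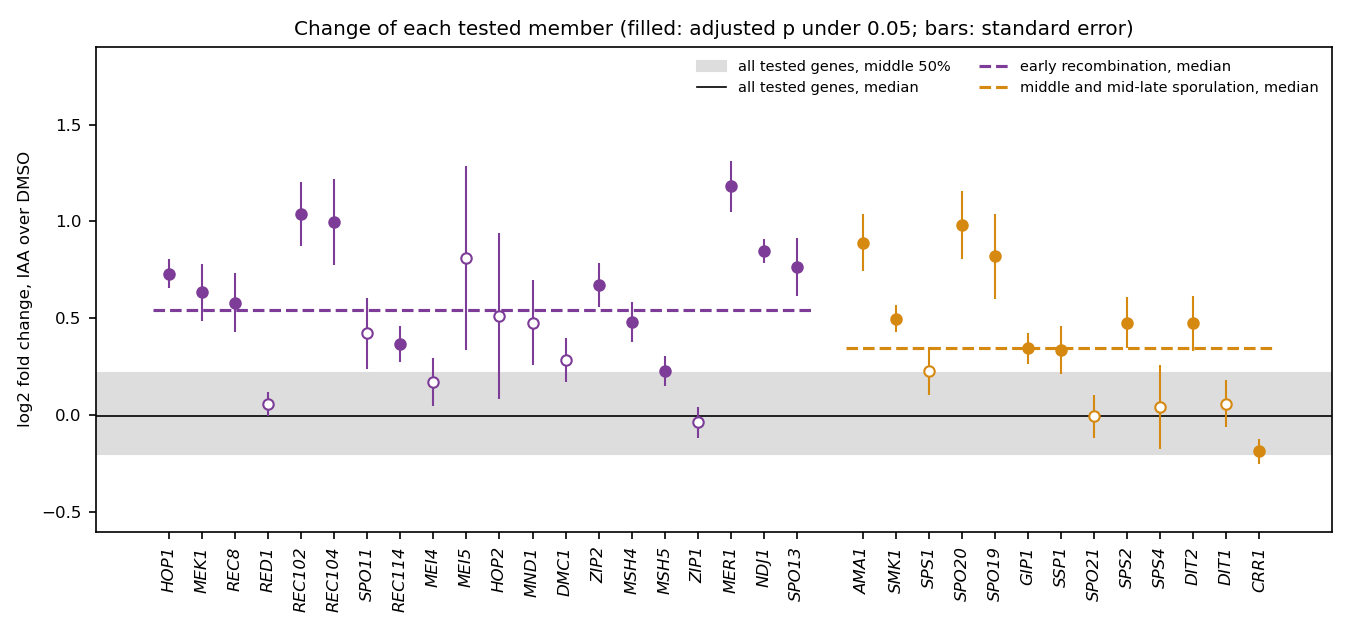
Log2 fold change of IAA over DMSO (y axis, with standard error) for the 33 tested genes, ordered by role, filled where the edgeR adjusted p was under 0.05. Dashed lines give the class medians of 0.55 and 0.35, and the grey band holds the middle 50% of all tested genes, from -0.20 to 0.22.

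The largest rise was that of MER1, a meiosis-specific splicing factor (chromosome XIV, 250931 to 251743). It had 11.97 and 10.65 CPM in IAA against 5.59 and 4.40 CPM in DMSO, a 2.27-fold rise (log2 fold change 1.18, SE 0.13, edgeR adjusted p = 1.72e-04). NDJ1, which ties telomeres to the nuclear envelope in meiosis (chromosome XV, 116396 to 117454), had 32.3 and 31.6 CPM in IAA against 17.5 and 18.0 CPM in DMSO. Its rise was 1.80-fold, or 0.85 on the log2 scale (SE 0.06), and its edgeR adjusted p of 3.38e-05 was the lowest of the 33 genes. SPO13, needed for sister kinetochores to face one pole in the first division, had 4.28 and 4.76 CPM in IAA against 2.63 and 2.69 CPM in DMSO. It rose 1.70-fold (edgeR adjusted p = 0.00275). In all of these genes the lower IAA library was well above the higher DMSO library.

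Known targets of Mer1 splicing include AMA1, ZIP4, HFM1 and REC107, and their gene totals did not move together. AMA1 and ZIP4 were 1.85-fold and 1.36-fold higher, HFM1 fell by 0.50 on the log2 scale, and REC107, named here after its value was seen, had a log2 fold change of -0.11 (edgeR adjusted p = 0.213). REC107 passed as lower with library size scaling (edgeR adjusted p = 0.0292) and in both limma fits on FPKM (adjusted p = 0.0386 and 0.0401). Gene totals do not separate spliced from unspliced RNA.

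Among genes of the chromosome axis, the protein core along which meiotic chromosomes fold into loops, 3 of 4 rose. The share higher was 28.7% over all tested genes. It was 36.6% among the 1536 tested genes in the level range of the members, which also holds beside the roles below. HOP1, an axis protein that recruits the recombination checkpoint (chromosome IX, 226602 to 228419), had 21.5 and 20.5 CPM in IAA against 12.33 and 12.96 CPM in DMSO, a rise of 1.66-fold (log2 fold change 0.73, SE 0.07, edgeR adjusted p = 1.10e-04). MEK1, the kinase that acts with Hop1 and Red1 to steer repair to the homologous chromosome, had 6.82 and 8.32 CPM in IAA against 5.37 and 4.40 CPM in DMSO, 1.55-fold higher (edgeR adjusted p = 0.00642). REC8, the meiotic cohesin subunit, had 5.83 and 5.56 CPM in IAA against 3.29 and 4.30 CPM in DMSO, 1.49-fold higher (edgeR adjusted p = 0.0112). The rise of REC8 was not called without DMSO replicate 1 (edgeR adjusted p = 0.0882). RED1, the third axis protein, was the exception: it had 27.4 and 26.2 CPM in IAA against 25.1 and 26.3 CPM in DMSO, and its groups overlapped (log2 fold change 0.06, SE 0.06, edgeR adjusted p = 0.455).

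Among genes that make the double-strand breaks, 3 of 5 rose and 0 fell, against 28.7% and 29.6% of all tested genes. REC102, a partner of the Spo11 cleavage enzyme (chromosome XII, 786442 to 787333), had 4.71 and 4.91 CPM in IAA against 2.63 and 2.06 CPM in DMSO. This was a 2.06-fold rise (log2 fold change 1.04, SE 0.16, edgeR adjusted p = 9.20e-04). REC104, another subunit of the Spo11 complex, had 3.78 and 2.76 CPM in IAA against 1.777 and 1.503 CPM in DMSO, 2.00-fold higher (edgeR adjusted p = 0.00519). Both rested on low counts, with 59 and 71 for REC102 and 43 and 48 for REC104 in DMSO. REC114, which acts with Mei4 in break formation, had 14.8 and 13.4 CPM in IAA against 11.5 and 10.4 CPM in DMSO, 1.29-fold higher (edgeR adjusted p = 0.00866), and was not called without DMSO replicate 2 (edgeR adjusted p = 0.0529). SPO11 itself had 2.51 and 2.79 CPM in IAA against 2.07 and 1.89 CPM in DMSO, and missed the threshold (log2 fold change 0.42, SE 0.18, edgeR adjusted p = 0.0764). MEI4 had a log2 fold change of 0.17 (SE 0.12, edgeR adjusted p = 0.260). For SPO11 and MEI4 the IAA libraries were also above the DMSO libraries in CPM, whereas in FPKM the groups of MEI4 overlapped.

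Over all tested genes edgeR called 58.3% in either direction. Of the 4 tested genes of strand exchange, edgeR, DESeq2 and limma-voom each called 0, while 1 had an unadjusted p under 0.05. That gene was DMC1, the meiotic recombinase, with 16.4 and 19.5 CPM in IAA against 16.1 and 13.3 CPM in DMSO (log2 fold change 0.29, SE 0.11, edgeR adjusted p = 0.0592). It passed without IAA replicate 1 (edgeR adjusted p = 0.00621) and without DMSO replicate 1 (edgeR adjusted p = 0.00789). DMC1 also passed where the filter kept only genes averaging 10 CPM or more (edgeR adjusted p = 0.0463), and its adjusted p was 0.00621 to 0.31 over the alternatives. HOP2 and MND1, which form a complex that assists Dmc1, had log2 fold changes of 0.51 (SE 0.43) and 0.48 (SE 0.22). MEI5 had a log2 fold change of 0.81 (SE 0.47). HOP2, MND1 and MEI5 stood below 2 CPM in every library, and their standard errors were larger than those of the other early genes except REC104.

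Of 4 genes of synapsis and crossover formation 3 rose, against 28.7% of all tested genes. ZIP2, which marks the sites where synapsis begins (chromosome VII, 33098 to 35212), had 12.4 and 13.7 CPM in IAA against 8.995 and 7.373 CPM in DMSO, 1.60-fold higher (log2 fold change 0.67, SE 0.11, edgeR adjusted p = 0.00127). It overlaps RME3 on the opposite strand. Libraries were directional and the estimated counts of ZIP2 were whole, but no source used here says that reads were counted by strand. Reads of the pair may thus be mixed. MSH4 had 9.15 and 10.1 CPM in IAA against 6.74 and 7.02 CPM in DMSO, 1.40-fold higher (edgeR adjusted p = 0.00421), a call lost in both limma fits on FPKM (adjusted p = 0.0631 and 0.0601). MSH5, which pairs with Msh4 on crossover intermediates, had 28.7 and 25.2 CPM in IAA against 23.7 and 22.3 CPM in DMSO, 1.17-fold higher (edgeR adjusted p = 0.0343). MSH5 was not called by DESeq2 or with library size scaling, nor without IAA replicate 1 (edgeR adjusted p = 0.164) or DMSO replicate 2 (edgeR adjusted p = 0.143). ZIP1, the central element of the synaptonemal complex, had 22.2 and 24.2 CPM in IAA against 25.2 and 22.4 CPM in DMSO, with overlapping groups (log2 fold change -0.04, SE 0.08, edgeR adjusted p = 0.725). The 2 early genes whose groups overlapped in CPM, RED1 and ZIP1, were among the 4 with the highest CPM in DMSO.

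**Figure D4:**
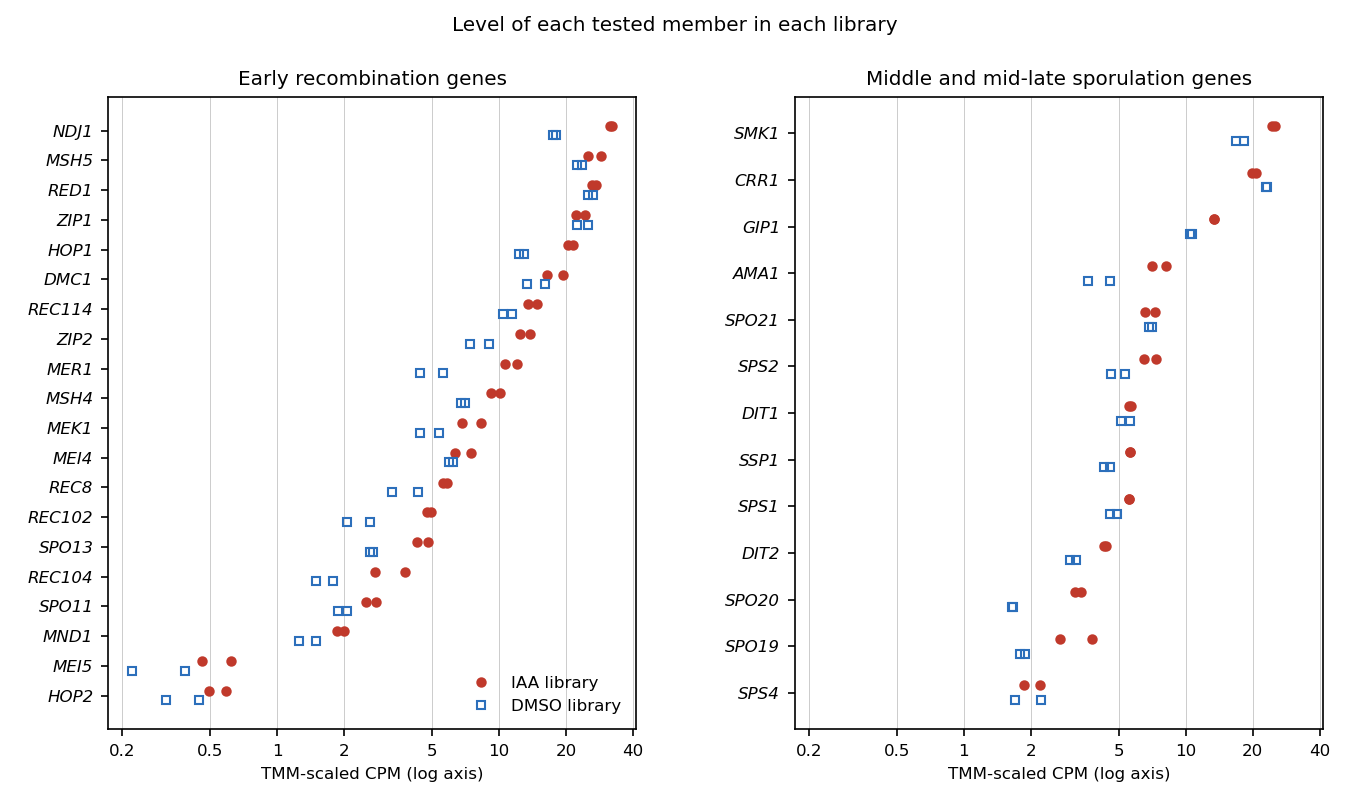
TMM-scaled CPM on a log axis in each IAA library (filled circles) and each DMSO library (open squares) for the 20 tested early genes (left) and the 13 middle and mid-late genes (right), sorted by the IAA mean. Circles lie right of the squares in 18 early and 9 later genes, and left of them in CRR1.

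Among the later genes, 2 of 3 regulators rose, against 28.7% of all tested genes. SMK1, a mitogen-activated protein kinase of spore wall assembly (chromosome XVI, 666280 to 667446), had 24.47 and 25.05 CPM in IAA against 18.3 and 16.8 CPM in DMSO. It rose 1.41-fold (log2 fold change 0.50, SE 0.07, edgeR adjusted p = 5.08e-04). AMA1, the meiotic activator of the anaphase-promoting complex (chromosome VII, 945145 to 947019), had 8.13 and 7.03 CPM in IAA against 4.55 and 3.63 CPM in DMSO, 1.85-fold higher (log2 fold change 0.89, SE 0.15, edgeR adjusted p = 0.00112). SPS1, a protein kinase of spore formation, had a log2 fold change of 0.23 (SE 0.12, edgeR adjusted p = 0.141), with IAA above DMSO in all libraries.

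Of 5 genes of the prospore membrane, which wraps each nucleus, 4 rose, against 28.7% of all tested genes. SPO20, a SNARE protein for vesicle fusion at that membrane (chromosome XIII, 307489 to 308682), had 3.38 and 3.16 CPM in IAA against 1.67 and 1.64 CPM in DMSO. It rose 1.98-fold (log2 fold change 0.98, SE 0.18, edgeR adjusted p = 0.00177). SPO19, a membrane protein, had 3.784 and 2.701 CPM in IAA against 1.89 and 1.78 CPM in DMSO, 1.77-fold higher (edgeR adjusted p = 0.0117), and was not called without IAA replicate 1 (edgeR adjusted p = 0.0567). GIP1, which targets the Glc7 phosphatase in sporulation, had 13.4 CPM in both IAA libraries against 10.7 and 10.4 CPM in DMSO, 1.27-fold higher (edgeR adjusted p = 0.00620), a rise that DESeq2 did not call. SSP1, of the coat at the leading edge of the membrane, had 5.58 and 5.59 CPM in IAA against 4.29 and 4.54 CPM in DMSO, 1.26-fold higher (edgeR adjusted p = 0.0435). Leaving out any 1 library ended the call of SSP1: its edgeR adjusted p was 0.0827 without IAA replicate 1, 0.0799 without IAA replicate 2, 0.206 without DMSO replicate 1 and 0.115 without DMSO replicate 2. SPO21, of the meiotic plaque on the spindle pole body, had 7.29 and 6.51 CPM in IAA against 7.03 and 6.81 CPM in DMSO (log2 fold change -0.01, SE 0.11, edgeR adjusted p = 0.971).

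The remaining later genes, of the spore wall or classed as specific to sporulation, were mixed. SPS2, which encodes a wall protein, had 6.48 and 7.31 CPM in IAA against 5.33 and 4.58 CPM in DMSO, 1.39-fold higher (edgeR adjusted p = 0.0131), and was not called without DMSO replicate 2 (edgeR adjusted p = 0.0902). SPS4, whose role is not known well, had overlapping groups (log2 fold change 0.04, SE 0.22). DIT2, which acts with Dit1 to make the dityrosine of the outer wall, had 4.37 and 4.27 CPM in IAA against 3.00 and 3.21 CPM in DMSO, 1.39-fold higher (edgeR adjusted p = 0.0197). Its call was lost without DMSO replicate 1 (edgeR adjusted p = 0.122) and without DMSO replicate 2 (edgeR adjusted p = 0.0647). DIT1 starts 898 bp away on the other strand and had a log2 fold change of 0.06 (SE 0.12, edgeR adjusted p = 0.690), so DIT2 passed the test and its divergent neighbour did not. The difference between them was not tested.

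CRR1, a putative wall glycosidase (chromosome XII, 566654 to 567922), was the 1 gene that fell. It had 19.9 and 20.6 CPM in IAA against 23.1 and 23.0 CPM in DMSO, and fell by 0.19 on the log2 scale (SE 0.06, edgeR adjusted p = 0.0329). This call was lost without IAA replicate 1 (edgeR adjusted p = 0.0917), without DMSO replicate 1 (edgeR adjusted p = 0.137) and without DMSO replicate 2 (edgeR adjusted p = 0.120). Without DMSO replicate 2, 5 later genes in place of 8 were higher. DESeq2 called 4 of the 8, without GIP1, SSP1, SPS2 and DIT2, and did not call the fall of CRR1.

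Genes that rose were found both with and without a match to the letters searched. The search allowed no other form of either element, so genes without a match may still carry one. The groups with and without a match were not tested against each other. Of 13 tested early genes with the URS1 core 8 were higher, and of 7 without it 4 were. Of 7 later genes with the MSE 4 were higher and 1 lower, and of 6 without it 4 were higher. The shares over all tested genes were 28.7% higher and 29.6% lower. Medians were 0.63 and 0.48 for early genes with and without URS1, and 0.34 and 0.41 for later genes with and without the MSE.

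For the 20 genes that rose, the gene next upstream was tested in 18 cases. Of these neighbours 6 were higher and 5 lower, shares near the 28.7% and 29.6% of all tested genes, with a median log2 fold change of 0.01. They include ZIP4, which lies beside HOP1 and was higher, and the members SPS1 and DIT1, which were not called. Of the 9 neighbours on the same strand, which include the untested gene before MSH4, 2 were higher. The higher neighbours were RMR1 before ZIP2 (log2 fold change 0.47) and ZTA1 before GIP1 (0.24). ARD1, divergent from SPO13, fell by 0.67 on the log2 scale. Some uncalled members had a called neighbour on the same strand, such as PDA1 before DMC1 (log2 fold change 0.66) and AIM17 before SPO11 (0.55).

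Other genes of the program were taken from 3 further lists, which were not tested against each other. Over all tested genes 28.7% were higher and 29.6% lower. Of 33 other sporulation genes 30 were tested, of which 19 were higher and 0 lower with edgeR, and 0 were lower at an unadjusted p under 0.05, with DESeq2 or with limma-voom. The median log2 fold change was 0.31. SSP2, an activator of Smk1, had 12.1 and 9.70 CPM in IAA against 2.702 and 3.529 CPM in DMSO, 3.49-fold higher (log2 fold change 1.80, SE 0.17, edgeR adjusted p = 7.33e-05). SPO77, which acts in spore wall formation, had 16.8 and 16.5 CPM in IAA against 7.85 and 6.78 CPM in DMSO, 2.28-fold higher (edgeR adjusted p = 4.30e-05). SPO74, of the meiotic spindle pole plaque, had 5.74 and 4.97 CPM in IAA against 2.26 and 2.03 CPM in DMSO, 2.50-fold higher (edgeR adjusted p = 2.55e-04). All of these exceeded the 1.98-fold rise of SPO20, the largest among the 13 later genes. Of 23 other recombination genes, 9 were higher and 5 lower, with a median of 0.04, and 3 were lower without DMSO replicate 1 or without DMSO replicate 2. The list includes repair genes that growing cells use. ZIP4, which builds crossovers with Zip2, had 27.4 and 29.6 CPM in IAA against 21.5 and 20.4 CPM in DMSO (1.36-fold, edgeR adjusted p = 8.86e-04). HFM1, the Mer3 helicase, had 20.5 and 20.7 CPM in IAA against 30.0 and 28.3 CPM in DMSO, and fell by 0.50 on the log2 scale (edgeR adjusted p = 3.21e-04). MUM2, of the RNA methylation complex of early meiosis, had 55.7 and 57.8 CPM in IAA against 71.6 and 70.5 CPM in DMSO, and fell by 0.32 (edgeR adjusted p = 7.79e-04).

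Of 16 regulators of these genes 5 were higher and 6 lower (31.2% and 37.5%), near the 28.7% and 29.6% of all tested genes. The count higher was 2 without DMSO replicate 1 and 3 without DMSO replicate 2. IME1, the activator of early genes, had 11.4 and 12.1 CPM in IAA against 18.2 and 15.6 CPM in DMSO, and fell by 0.52 on the log2 scale (edgeR adjusted p = 0.00185). UME6, the URS1-binding repressor, had 84.0 and 86.6 CPM in IAA against 102 and 112 CPM in DMSO, and fell by 0.33 (edgeR adjusted p = 0.00116). Thus the transcripts of the early activator and of the early repressor were both lower. SUM1, the MSE-binding repressor, had 176 and 177 CPM in IAA against 212 and 221 CPM in DMSO, and fell by 0.29 (edgeR adjusted p = 7.13e-04). NDT80, the activator of middle genes, had 23.4 and 22.4 CPM in IAA against 19.4 and 19.1 CPM in DMSO, and was 1.19-fold higher (edgeR adjusted p = 0.0102). NDT80 was not called without DMSO replicate 2 (edgeR adjusted p = 0.0536), by DESeq2 (adjusted p = 0.0719) or with library size scaling (edgeR adjusted p = 0.0736). XBP1, a stress-induced repressor of transcription, had 28.4 and 30.2 CPM in IAA against 14.1 and 16.9 CPM in DMSO, 1.89-fold higher (log2 fold change 0.92, SE 0.09, edgeR adjusted p = 9.48e-05). IME4, named after its value was seen, had the largest log2 fold change of the list, but its estimated counts had decimals, a sign of reads divided with another locus, and it was at 0 in DMSO replicate 1, so its value is uncertain.

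**Figure D5:**
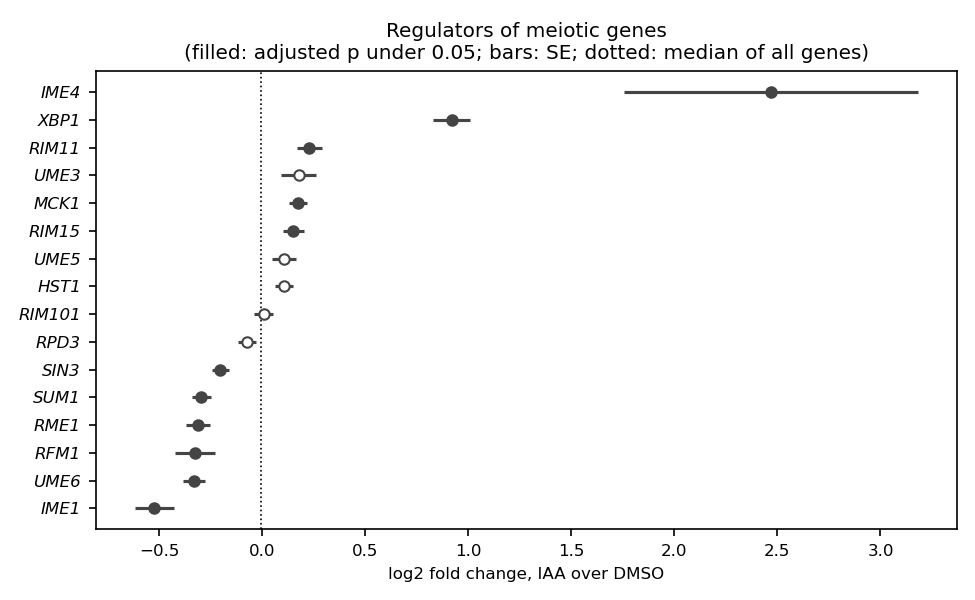
Log2 fold change of IAA over DMSO (x axis, with standard error) for 16 regulators of meiotic genes, filled where the edgeR adjusted p was under 0.05. The 6 that passed as lower are IME1, UME6, RFM1, RME1, SUM1 and SIN3, and XBP1 and IME4, whose reads were shared, lie furthest right.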

How the data were processed

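The authors deposited estimated counts per gene, which need not be whole, and FPKM values in a second table, in which 3 of 6459 rows were not used here. Build R64, DESeq2, RSEM 1.3.3, STAR 2.7.10a, Trimmomatic, SAMtools 1.10 and FastQC 0.11.9 are named, per the submitters' processing notes, without order or role. Per the labels' protocols, total RNA was made into directional libraries. Estimated counts of all 34 genes were whole (tolerance 0), and they were rounded for the other genes. In R 4.3.3, edgeR 4.0.16 (filterByExpr, TMM, glmQLFit, glmQLFTest) compared IAA with DMSO without covariates, and the same fit was tested on simulated data. The standard error is the log2 fold change over the root of F. Alternatives were other scalings and filters, DESeq2 1.42.0, limma-voom and limma 3.58.1 on log2(FPKM + 1) and log2(FPKM + 0.1), each library left out (its partner was then assumed to vary like the other group) and a replicate block. Positions and promoters came from the R64 RefSeq annotation and genome.

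The members and lists were chosen with earlier results of these data known, and the classes and roles were set from textbook knowledge. Every called member and the 5 with the highest FPKM are given by library. In other lists the 3 called genes with the lowest adjusted p are named, plus IME1, NDT80 and UME6.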

Additional observations from a re-analysis of the deposited data

How the results depend on the processing

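No called gene of the 34 changed direction in any of the 13 alternatives, and 11 of 21 calls held in every one that tested the gene. Early genes higher (12) numbered 6 with a mean of at least 10 CPM, where the median was 0.35, since fewer genes were tested, and 10 to 12 with a library left out. The early median was 0.34 on log2(FPKM + 1), a pseudocount that compresses low values, and 0.45 on log2(FPKM + 0.1). In both FPKM fits the median of all genes was -0.09. Later genes higher (8) numbered 2 at 10 CPM, 4 with DESeq2, 4 in both FPKM fits and 5 to 7 with a library left out (the FPKM fits did not call GIP1, SSP1, SPS2 and DIT2, nor REC8, MSH4 and MSH5), and the 1 lower call became 0 with DESeq2 and 0 to 1 with a library left out. The later median of 0.35 was 0.24 with library size, 0.36 at 10 CPM, 0.22 and 0.25 on log2(FPKM + 1) and log2(FPKM + 0.1), and 0.35 to 0.37 with a library left out.

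Other recombination genes higher (9) numbered 4 in both FPKM fits, and those lower (5) numbered 8 with library size, 3 at 10 CPM, 3 with DESeq2 and 3 to 5 with a library left out. Other sporulation genes higher (19) numbered 9 at 10 CPM, and those lower (0) numbered 1 with library size and 0 to 1 with a library left out. Regulators higher (5) numbered 2 with library size, 2 and 1 on log2(FPKM + 1) and log2(FPKM + 0.1), and 2 to 7 with a library left out. Apart from the smaller number of genes at 10 CPM, the causes were not tested.

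The replicate numbers are not said to pair the samples. Deviations of same-numbered libraries correlated at 0.239 over genes, and HIS3 differed between numbers in both groups. With a replicate block 13 early and 8 later genes were higher, 0 and 1 lower, the medians were 0.55 and 0.35, and DMC1 passed (edgeR adjusted p = 0.0329). HOP2, MEI5 and MND1 had standard errors of 0.43, 0.47 and 0.22 at fewer than 2 CPM in every library.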
